A study of Rattus norvegicus with 15 samples.

Results

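A set of 10 genes of antigen presentation, read by 34 probe sets, was followed in rat kidney: the class II histocompatibility chains RT1-Ba, RT1-Bb and RT1-Da, the invariant chain Cd74, the class I light chain B2m, the peptide transporter Tap1, the immunoproteasome subunits Psmb8, Psmb9 and Psmb10, and the interferon-induced gene Ifi27. These 10 genes, of 10969 with a single symbol in the series, were chosen by the lower signals that an earlier comparison of the strains had shown for some of them on arrays B and C. Their values in that comparison are therefore given as a description, with no test. Total RNA of kidneys of rats aged 5 weeks had been hybridised to 3 array designs, A, B and C, with 5 arrays per design, numbered 1 to 5. On B and C, kidneys 4 and 5 came from a congenic strain for chromosome 10 of the Dahl salt-sensitive rat (Dahl S), and kidneys 1 to 3 from Dahl S itself, an inbred line that becomes hypertensive on salt. The labels of design A give Dahl S for every array, also for kidneys 4 and 5, whose counterparts on B and C are congenic. The strain of these 2 arrays was therefore taken as unsettled, and each is given on its own. No source used here names the donor strain, the ends of the segment, a treatment or a diet, or whether each kidney came from an animal of its own.

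Class II molecules are heterodimers that carry peptides from endosomes to CD4 T cells. Cd74 escorts them through the cell, and in kidney they sit mainly on resident dendritic cells and macrophages, while interferon-gamma can also induce them on tubular cells. Class I molecules need B2m and are loaded with peptides that the proteasome cuts and the transporter Tap1-Tap2 brings into the endoplasmic reticulum. Under interferon the catalytic subunits Psmb5, Psmb6 and Psmb7 of the constitutive proteasome are replaced by Psmb8, Psmb9 and Psmb10, which favour peptides that class I can bind.

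None of the 10 genes lies on chromosome 10, which carries the congenic segment. In the RefSeq annotation of rat assembly GRCr8, 6 of them lie on chromosome 20 within 159.029 kb (chr20:4515393-4674421), in the order RT1-Da, RT1-Ba, RT1-Bb, Psmb8, Tap1 and Psmb9. Tap1, on the minus strand, and Psmb9, on the plus strand, start 408 bases apart and point away from each other. B2m is on chromosome 3, Ifi27 on chromosome 6, Cd74 on chromosome 18 and Psmb10 on chromosome 19. The assembly was made from another strain (BN), and the sequence of the rats studied was not measured.

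The promoters are shown because 6 members are neighbours and the members share known regulators, so that a reader can see which motif stands where. The class II chains are known to be driven through an X box and a Y box, on which the transactivator Ciita assembles. In windows from 250 bases before to 50 bases after the annotated start, the Y box core CTGATTGG, searched on both strands, was found in all 3 class II chain genes. It was also found in Psmb9, from base 20 to base 27 after the start. It occurred in 3.50% of the 33469 promoters of the table. The X box pattern, CC, any base, AG, any 2 bases, AC, any base and GATG, searched likewise, was found in RT1-Bb and RT1-Da and in 0.0717% of promoters. No match overlapped another. The starts are those of the promoter table, which for RT1-Da, B2m and Psmb8 lie 22, 94 and 18 bases inside the outermost annotated start of the gene. The 110 bases before the start follow, all 5′ to 3′ on the strand of the gene, with matches in capitals, at chr20:4576947-4577056 (plus strand), chr20:4604119-4604228 (minus strand) and chr20:4515305-4515414 (plus strand).
RT1-Ba: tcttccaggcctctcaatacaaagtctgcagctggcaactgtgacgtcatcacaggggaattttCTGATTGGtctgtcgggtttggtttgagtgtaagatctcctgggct
RT1-Bb: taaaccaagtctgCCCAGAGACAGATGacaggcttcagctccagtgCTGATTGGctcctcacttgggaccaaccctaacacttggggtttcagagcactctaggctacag
RT1-Da: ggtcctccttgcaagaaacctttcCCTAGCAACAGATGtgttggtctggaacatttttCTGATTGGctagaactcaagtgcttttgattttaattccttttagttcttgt

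The pattern GAAA, any 2 bases and GAAA, the core of elements that interferon regulatory factors bind, searched on both strands, was found in B2m, Tap1, Psmb8, Psmb10 and Ifi27, which are 5 of the 10 members, and in 3.92% of all promoters. The Tap1 match lies between the annotated starts of Tap1 and Psmb9, but outside the window searched for Psmb9. Psmb10 and Ifi27 held 2 matches each. Tap1 and Psmb8 held theirs on the opposite strand, so that it reads TTTC, 2 bases and TTTC on the strand shown. Cd74 had no match to any of these 3 patterns in this window. Stretches of 110 bases around the matches are shown, at chr3:129549170-129549279 (plus strand), chr20:4668584-4668693 (minus strand), chr20:4657022-4657131 (minus strand, ending 10 bases into the transcript), chr19:50743293-50743402 (minus strand) and chr6:128355132-128355241 (plus strand).
B2m: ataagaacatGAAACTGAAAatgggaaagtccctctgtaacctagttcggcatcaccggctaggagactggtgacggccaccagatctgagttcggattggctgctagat
Tap1: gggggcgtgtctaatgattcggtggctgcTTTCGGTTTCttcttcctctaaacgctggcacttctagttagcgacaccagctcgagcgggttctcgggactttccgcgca
Psmb8: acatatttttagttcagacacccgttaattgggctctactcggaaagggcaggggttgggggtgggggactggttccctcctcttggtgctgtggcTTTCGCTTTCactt
Psmb10: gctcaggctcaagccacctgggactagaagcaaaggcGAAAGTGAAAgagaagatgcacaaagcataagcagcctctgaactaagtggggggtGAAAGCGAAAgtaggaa
Ifi27: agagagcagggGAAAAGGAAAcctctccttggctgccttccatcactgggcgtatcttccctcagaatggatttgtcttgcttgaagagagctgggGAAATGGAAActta

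**Figure D1:**
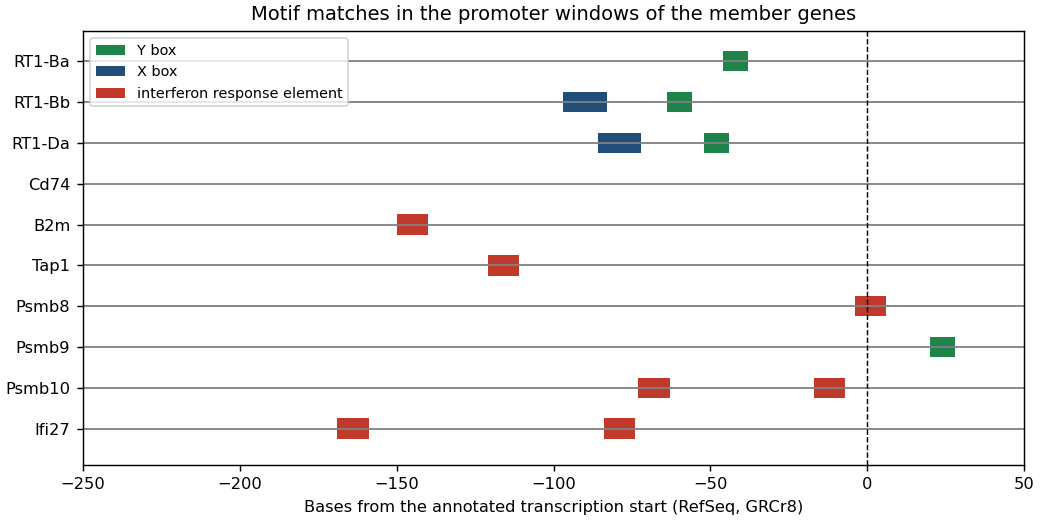
Position of motif matches (bars) in the promoter window of each of the 10 genes (rows), in bases from the annotated transcription start (dashed line). The 3 class II chain genes carry a Y box, and B2m, Tap1, Psmb8, Psmb10 and Ifi27 the interferon response element core.

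All levels below are deposited signal intensities of single probe sets, on a linear scale, and levels of different probe sets cannot be set against each other. Array medians were 294.5 to 334.3 for design A, 472.8 to 519.5 for B and 491.3 to 524.4 for C, and the small number of arrays limits the precision. For log2 differences, signals under a floor (85.1 for A, 140.1 for B, 153.6 for C, the 25th percentile) were raised to it. Probe sets entered the comparisons where their mean signal reached the median of the design (319.5 for A, 485.8 for B, 510.3 for C). This held for 29 of the 34, namely 17 of 20 for design A, 5 of 6 for B and 7 of 8 for C. The other 5, 4 of RT1-Bb and 1 of RT1-Ba, lay below the floor in every kidney. On A all 23 probe sets of 15 kidney marker genes passed this filter, while of the adrenal list Star lay below the floor in every kidney, and Th (376 to 672) and Cyp21a1 (262 to 424) passed it.

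**Figure D2:**
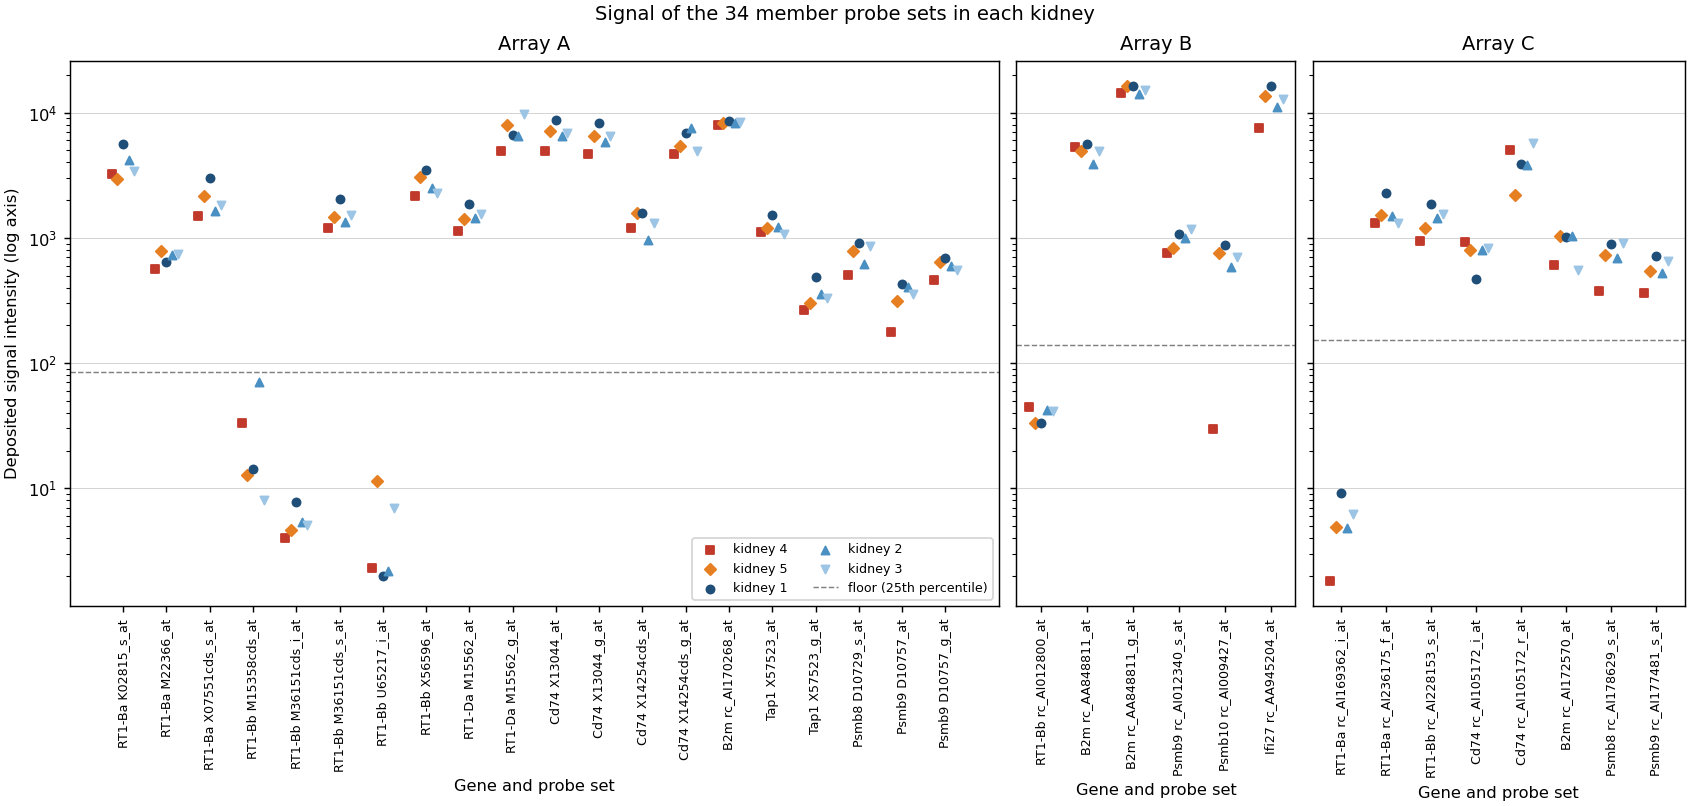
Deposited signal intensity (log axis) of each of the 34 member probe sets in each kidney on arrays A, B and C. Squares and diamonds are kidneys 4 and 5, the blue symbols kidneys 1 to 3, and the dashed line is the floor. Kidney 4 is the lowest of the 5 kidneys in 14 of 17 tested probe sets of A, 3 of 5 on B, and on C 4 of 7. Over all tested probe sets it is lowest in 28.6%, 23.2% and 21.6%.

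RT1-Bb, the beta chain of the RT1.B molecule, was the class II chain whose strain values did not overlap. On array C its probe set rc_AI228153_s_at had signals of 951 and 1206 in congenic kidneys 4 and 5, against 1868, 1446 and 1542 in Dahl S kidneys 1, 2 and 3. Both congenic values lay below all Dahl S values (log2 difference −0.59, SE 0.18). On array A the probe set X56596_at of RT1-Bb had signals of 2146 in kidney 4 and 3070 in kidney 5, against 3504, 2494 and 2282 in Dahl S kidneys 1, 2 and 3. There kidney 4 was lowest and kidney 5 within the Dahl S range, and the probe set M36151cds_s_at showed the same order for these 2 kidneys (1199 and 1466, against 1344 to 2045 in Dahl S). The RT1-Bb probe set of array B gave no level above the floor.

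RT1-Ba, the alpha chain that pairs with RT1-Bb, had signals of 1315 and 1509 in congenic kidneys and of 2287, 1498 and 1316 in Dahl S kidneys on array C (rc_AI236175_f_at). These groups overlapped (log2 difference −0.23, SE 0.24), and Dahl S kidney 1 was the highest of the 5. The 3 tested RT1-Ba probe sets of array A disagreed about kidney 5. It was lowest of all in K02815_s_at (2940 in kidney 5 and 3244 in kidney 4, against 3416 to 5627 in Dahl S), within the Dahl S range in X07551cds_s_at, and highest of all in M22366_at. The signals of X07551cds_s_at were 1501 in kidney 4 and 2147 in kidney 5, against 3022, 1638 and 1839 in Dahl S kidneys. Kidney 4 was lowest in this probe set and in M22366_at. RT1-Da, the alpha chain of the RT1.D molecule, was on array A alone. Its probe set M15562_g_at measured 4944 in kidney 4 and 8026 in kidney 5, against 6583, 6554 and 9722 in Dahl S kidneys. M15562_at, named for the same sequence, measured 1124 and 1409 in these kidneys, against 1854, 1437 and 1564. Kidney 4 was lowest in both, and kidney 5 lay within the Dahl S range in the M15562_g_at values and below it in the others. Class II genes are a family of close paralogs, and signal shared between them cannot be separated here.

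Cd74, which chaperones class II chains, gave different pictures on A and C. On array A, X13044_at measured 4925 in kidney 4 and 7145 in kidney 5, against 8809, 6554 and 6843 in Dahl S kidneys, and 3 of the 4 Cd74 probe sets of this array had kidney 4 below all others. X14254cds_at, which did not, measured 1203 in kidney 4 and 1591 in kidney 5, against 1586, 954 and 1318 in Dahl S kidneys, and kidney 2 was lowest there. On array C, rc_AI105172_r_at measured 5045 and 2200 in congenic kidneys 4 and 5, against 3876, 3796 and 5703 in Dahl S kidneys. Here kidney 5 was lowest and kidney 4 within the Dahl S range. The probe set rc_AI105172_i_at, named for the same sequence, measured 918 and 796 in congenic kidneys, against 471, 802 and 828 in Dahl S kidneys. The log2 differences between strains of these 2 probe sets were −0.39 (SE 0.35) and 0.33 (SE 0.26), so array C gives Cd74 no settled direction. For rc_AI105172_r_at it was −0.99 without kidney 4 and 0.20 without kidney 5.

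B2m, the light chain of all class I molecules, had log2 differences between strains from −0.09 to 0.11 on B and C. On array A it measured 7895 in kidney 4 and 8257 in kidney 5, against 8615, 8222 and 8431 in Dahl S kidneys. On array B, rc_AA848811_g_at measured 14472 and 16315 in congenic kidneys, against 16366.5, 14079 and 15304 in Dahl S kidneys, a log2 difference of 0.01 (SE 0.14). The other B2m probe set of array B, rc_AA848811_at, measured 5309 and 4972 in congenic kidneys, against 5621, 3911 and 4950.0 in Dahl S kidneys. The strains overlapped in all 3 probe sets of B and C, and kidney 2, not kidney 4, was lowest in those of B. The C probe set rc_AI172570_at scattered within each strain, at 606 and 1029.9 in congenic kidneys and 1022, 1039 and 556 in Dahl S kidneys.

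Tap1 was measured on array A alone, by 2 probe sets named for the same sequence. X57523_g_at had signals of 263 in kidney 4 and 302.5 in kidney 5, against 489, 356 and 333 in Dahl S kidneys 1, 2 and 3, with both below all 3. X57523_at had 1108 and 1192 in these kidneys, against 1527.5, 1223 and 1069, with both inside the Dahl S range.

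The immunoproteasome subunits had their lowest signal in kidney 4 on every design. The median deviation of kidney 4 from the mean of the 5 kidneys, on the log2 scale, was taken over their tested probe sets. It was −0.50 on A (3 probe sets) and −0.73 on C (2 probe sets). For the class II chains with Cd74 it was −0.31 on A and 0.03 on C. On C this median joins unlike genes, as kidney 4 deviated by −0.52 for RT1-Bb, −0.24 for RT1-Ba and 0.33 for the mean of Cd74. Psmb10 was on array B alone, and had signals of 29.9 in congenic kidney 4 and 750.1 in congenic kidney 5, against 869, 589 and 708 in Dahl S kidneys. Kidney 4 lay below the floor and kidney 5 inside the Dahl S range. The log2 difference of −1.14 (SE 0.64) between the strains takes kidney 4 at the floor. It was −2.01 with the floor at the 10th percentile and −0.56 with it at the 40th, and 0.07 without that kidney.

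Psmb8 measured 378 and 729 in congenic kidneys 4 and 5 on array C, against 892, 691 and 902 in Dahl S kidneys (log2 difference −0.65, SE 0.28). On array A the Psmb8 probe set measured 509 in kidney 4 and 787 in kidney 5, against 904, 619.6 and 865 in Dahl S kidneys. On both designs kidney 4 was below all Dahl S kidneys and kidney 5 within their range. Without kidney 4 the difference on array C was −0.17.

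Psmb9 was measured on all 3 designs. On array B it had signals of 761 and 829 in congenic kidneys, against 1068.5, 992 and 1167 in Dahl S kidneys, with no overlap (log2 difference −0.43, SE 0.14). On array C it had 363 and 541 in congenic kidneys, against 717, 527 and 659 in Dahl S kidneys, with kidney 5 inside the Dahl S range (log2 difference −0.51, SE 0.22). On array A, D10757_at had 176 in kidney 4 and 313 in kidney 5, against 431, 402 and 357 in Dahl S kidneys, with both below all 3. D10757_g_at had 462 and 638 in these kidneys, against 684, 600.4 and 549, with kidney 5 inside the range. Kidney 4 was the lowest kidney in every tested immunoproteasome probe set, 3 of 3 on A, 2 of 2 on B, and on C 2 of 2. Over all tested probe sets it was lowest in 28.6% on A, 23.2% on B and 21.6% on C.

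Ifi27, a gene known for its induction by type I interferon, measured 7508 and 13557 in congenic kidneys 4 and 5 on array B, against 16266.5, 11109.6 and 12774 in Dahl S kidneys. Kidney 4 was below and kidney 5 within the Dahl S range (log2 difference −0.39, SE 0.28, and 0.04 without kidney 4).

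**Figure D3:**
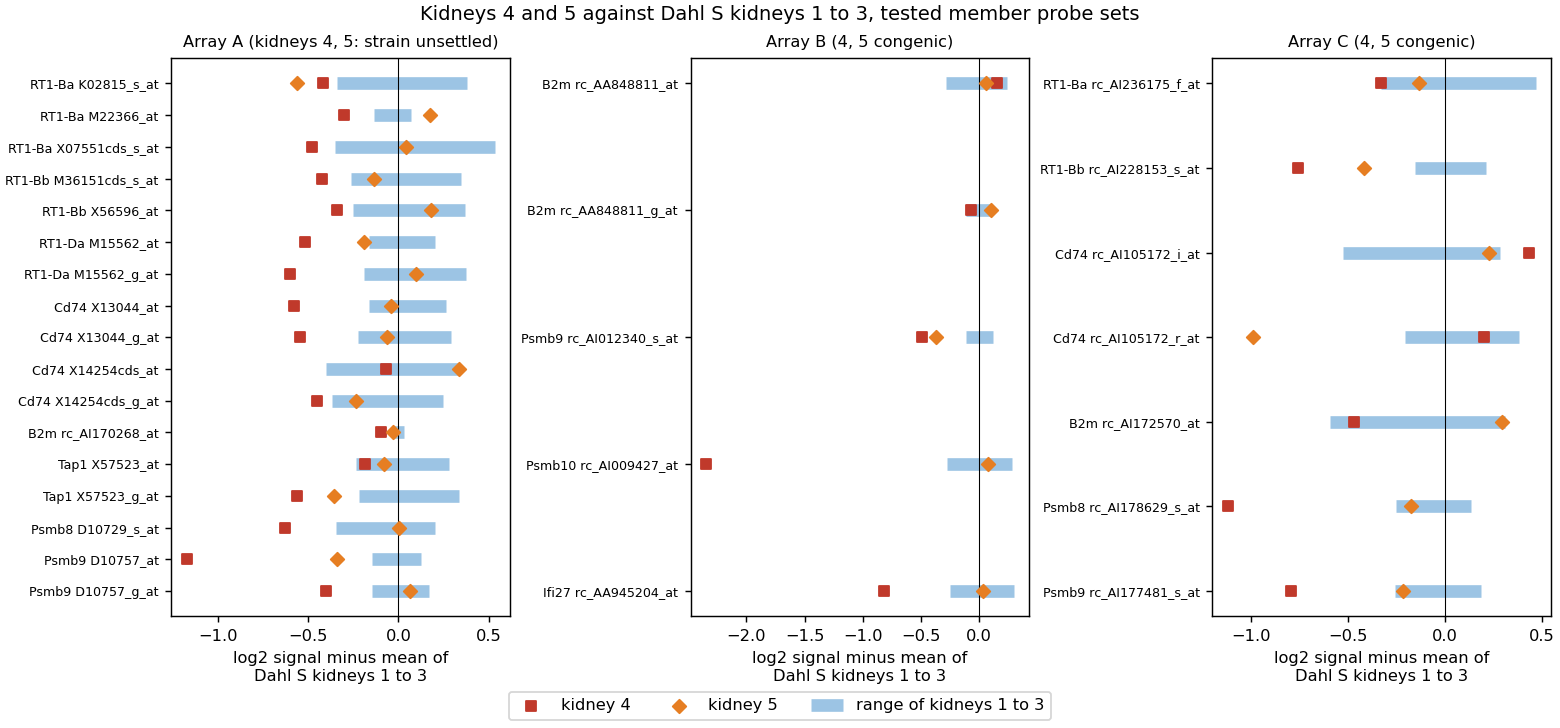
log2 signal of kidneys 4 (squares) and 5 (diamonds) minus the mean of Dahl S kidneys 1 to 3 (x axis) for each tested member probe set (rows), with bars for the range of kidneys 1 to 3. Kidney 4 lies left of the bar in 15 of 17 probe sets of A, 3 of 5 on B, and on C 4 of 7, and kidney 5 within the bar in 11, 4 and 5. Over all tested probe sets these shares are 32.5%, 27.2% and 28.1% for kidney 4, and 52.1%, 55.1% and 46.7% for kidney 5.

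In the fit of limma over all tested probe sets of a design, 4 of 4385 probe sets on B (0.0912%) and none of 4420 on C (0%) passed an adjusted p of 0.05. None of the members was among them, which is given as a description since the members were chosen from this comparison. Without adjustment, 153 probe sets on B and 274 on C had a p under 0.05. Both congenic kidneys lay below all Dahl S kidneys in 1 of 5 member probe sets on B (Psmb9) and in 1 of 7 on C (RT1-Bb). Over all tested probe sets this held for 9.44% on B and 12.2% on C. On A kidneys 4 and 5 both lay below kidneys 1 to 3 in 4 of 17 member probe sets, 1 each of RT1-Ba, RT1-Da, Tap1 and Psmb9, and in 10.1% of all. Both lay above in 0 member probe sets of each design, beside 8.82% of all on A, 7.73% on B and 10.2% on C. The median log2 difference of the members, congenic minus Dahl S, was −0.39 on B and −0.39 on C, beside −0.01 over all probe sets on each. Without congenic kidney 4 the median was 0.059 on B and −0.17 on C, and without congenic kidney 5 it was −0.50 and −0.47.

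On A and C, kidneys 4 and 5 lay in unlike positions relative to kidneys 1 to 3 in most member probe sets. On B both lay below for Psmb9 and both lay within the Dahl S range for both B2m probe sets, while Psmb10 and Ifi27 had unlike positions. The share of all probe sets with unlike positions was not counted. The tested member probe sets stood for 8 genes on A, 4 on B and 6 on C. Several were pairs named for the same sequence, so probe sets are not separate observations. Since the members were chosen by lower congenic signals of some of them on B and C, the counts there are a description. Kidney 4 lay below all Dahl S kidneys in 15 of 17 member probe sets of A, 3 of 5 on B, and on C 4 of 7, beside 32.5%, 27.2% and 28.1% of all. Those on C include RT1-Ba, at 1315.3 in kidney 4 against 1316.1 in kidney 3. Kidney 4 was the lowest of the 5 kidneys in 14 of 17 member probe sets of A, 3 of 5 on B, and on C 4 of 7, where over all probe sets it was lowest in 28.6%, 23.2% and 21.6%. Kidney 5 was lowest in 1 on A, 0 on B, and on C 1, beside 16.5%, 19.1% and 22.5% of all. Kidney 5 lay within the range of kidneys 1 to 3 in 11 of 17 on A, 4 of 5 on B, and on C 5 of 7, as did 52.1%, 55.1% and 46.7% of all probe sets. For kidney 4 this held for 2 on each design, beside 45.8% on A, 47.2% on B and 46.5% on C.

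Taken singly, kidney 4 was below kidney 5 in 16 of 17 member probe sets of A, 4 of 5 on B, and on C 5 of 7, beside 58.3%, 48.4% and 50.3% of all. The exceptions were K02815_s_at of RT1-Ba on A, rc_AA848811_at of B2m on B and both Cd74 probe sets on C. The median log2 difference of kidney 4 minus kidney 5 over the members was −0.46 on A, −0.17 on B and −0.34 on C, beside −0.07, 0.01 and −0.00 over all probe sets. It was −0.31 on A with the arrays scaled to a common median, and −0.49 on B with the probe sets of a gene averaged, so that B2m counts once.

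The Dahl S kidneys also differed among themselves. Kidney 1 minus kidney 2 had a member median of 0.41 on A, 0.52 on B and 0.37 on C. Kidney 1 minus kidney 3 had 0.36, 0.18 and 0.12, and kidney 2 minus kidney 3 had −0.04, −0.23 and −0.09. Kidney 1 was the highest of the 5 in 13 of 17 member probe sets of A, 4 of 5 on B, and on C 3 of 7, beside 14.7%, 19.0% and 15.1% of all. Both highest in kidney 1 and lowest in kidney 4 were 11 of the 17 on A, 2 of the 5 on B (Psmb10 and Ifi27) and 3 of the 7 on C.

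**Figure D4:**
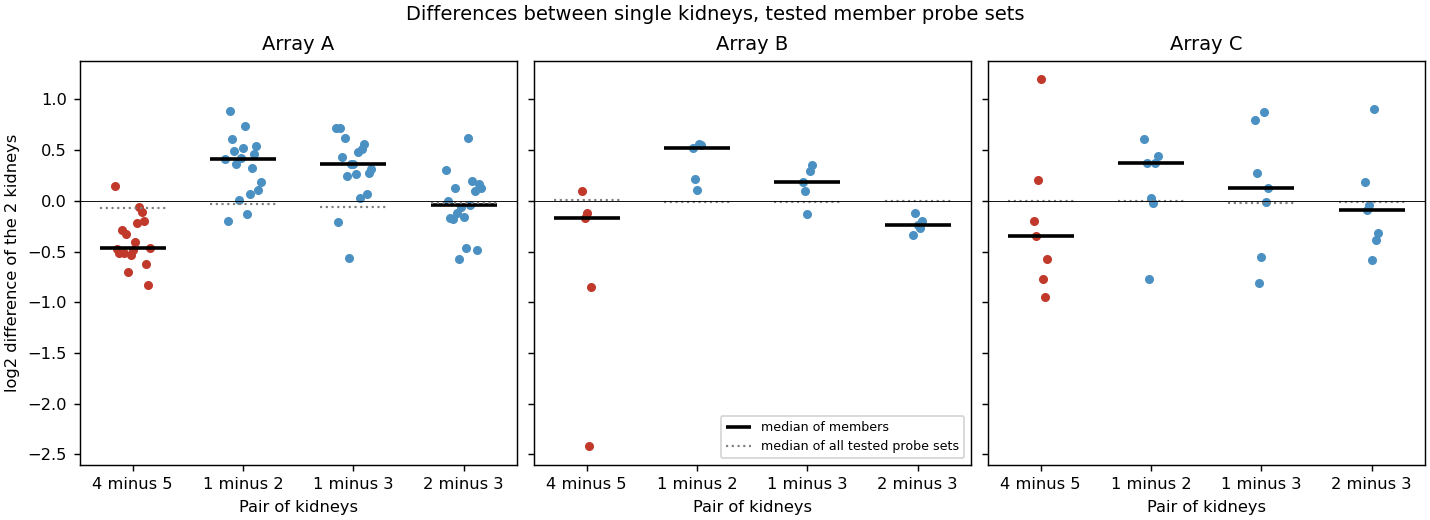
log2 difference between 2 single kidneys (y axis) for each tested member probe set (points), for kidneys 4 and 5 (red) and for each pair of Dahl S kidneys 1 to 3 (blue). Black lines are member medians and dotted lines medians of all tested probe sets; on A the 4 minus 5 median is −0.46 and the 1 minus 2 median 0.41.

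Whether the same number on different designs stands for the same kidney is not stated in the labels. Among genes tested on 2 designs, the deviation of kidney 4 from the mean of the 5 kidneys correlated with that of kidney 4 on the other design at r = 0.27 for A and B (365 genes), 0.31 for A and C (429 genes) and 0.32 for B and C (600 genes). With the other 4 numbers it correlated at 0.06 at most. For kidney 1 the same-number values were 0.20, 0.19 and 0.23, and for kidneys 2, 3 and 5 they lay between 0.01 and 0.09. These are correlations across genes, which are no independent replicates, and the deviations of a gene over the 5 arrays of a design sum to 0. For kidneys 2, 3 and 5 another number correlated as well or better on at least 1 pair of designs.

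Of the other genes of the pathway, none passed the threshold on B or C. A difference below 0 was found for 0 of 2 tested probe sets of class I heavy chains, 3 of 3 of class II loading and control, 2 of 5 of class I peptide loading and 2 of 5 of proteasome activators and assembly factors on B. On C the counts were 3 of 3, 1 of 2, 1 of 2 and 2 of 3. Over all tested probe sets the share was 51.4% on B and 52.1% on C. The 2 probe sets of class I heavy chains on B were of RT1-CE1 (log2 difference 0.03) and Fcgrt (1.08). Fcgrt measured 866 and 972 in congenic kidneys, against 1038, 559 and 131 in Dahl S kidneys. On array B, Ciita, the transactivator of class II genes, measured 609 and 758 in congenic kidneys, against 951, 787.5 and 796 in Dahl S kidneys, with no overlap. Rfxank, a subunit of the RFX complex on the X box, measured 1045 and 1111 in congenic kidneys, against 1173.5, 1157 and 1192. Both congenic kidneys lay below all Dahl S kidneys in 9.44% of all tested probe sets on B and 12.2% on C. Ifi30, a thiol reductase of endosomes, was the other tested gene of class II loading and control on B, and kidney 4 was lowest in all 3. On A kidney 4 was lowest in 5 of 11 probe sets of that list and in 7 of 12 of class I heavy chains, beside 28.6% of all. Kidneys 4 and 5 both lay below kidneys 1 to 3 in 4 of these 12, of RT1-CE16, RT1-CE12, RT1-A and RT1-M3-1, and both above in 2. Over all tested probe sets of A these shares were 10.1% and 8.82%. Class I heavy chains had 3 tested probe sets on C, all with a difference below 0, among them RT1-CE5 at 7298 and 7264 in congenic kidneys, against 8312, 7704 and 9269 in Dahl S kidneys.

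Among class I peptide loading genes on C, the peptidase Erap1 measured 1034.5 and 1091 in congenic kidneys, against 1514, 1181 and 1530.5 in Dahl S kidneys. The aminopeptidase Lnpep measured 1782 and 1397 in congenic kidneys, against 485, 1363 and 588. Neither overlapped between the strains, with Erap1 lower and Lnpep higher in congenic kidneys. Of the interferon response list, 12 of 14 tested probe sets on B and 8 of 10 on C had a difference below 0 (medians −0.10 and −0.11), beside 51.4% and 52.1% of all. Dahl S kidney 1 was highest in 7 of the 14 and 7 of the 10, beside 19.0% and 15.1% of all. On B the median deviation of this list was 0.13 in kidney 1, and −0.05, −0.02, −0.04 and −0.01 in kidneys 4, 5, 2 and 3. On C it was −0.15 and 0.02 in kidneys 4 and 5, and 0.18, −0.18 and 0.08 in kidneys 1, 2 and 3. The interferon receptor chain Ifnar1 was the 1 gene of this list without overlap on B, in 1 of its 2 tested probe sets (rc_AI007872_at, 1735 and 1598 in congenic kidneys, against 1772, 1882 and 1751), and on C there was none. Over all tested probe sets, those without overlap were 9.44% (lower) and 7.73% (higher) on B. On C they were 12.2% and 10.2%.

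Among the constitutive subunits the strains overlapped on both designs. Psmb5, which Psmb8 replaces, measured 2866.5 and 2714 in congenic kidneys on array B, against 2506, 2769.6 and 2805.5 in Dahl S kidneys, and kidney 4 minus kidney 5 was between −0.07 and 0.14 on the log2 scale over its 3 probe sets on A. Psmb7, which Psmb10 replaces, measured 4197 and 4968 in congenic kidneys on C, against 5084, 4445 and 4226 in Dahl S kidneys. In this single probe set kidney 4 minus kidney 5 was −0.24, with kidney 4 lowest and kidney 1 highest. No tested probe set carried the symbol Psmb6. The proteasome activator subunits and assembly factors (Psme1, Psme2, Psme3, Pomp, Psmg1 and Psmg2) had kidney 4 as the lowest kidney in none of the 4 tested probe sets on A, the 5 on B or the 3 on C.

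Markers of leukocytes, macrophages and dendritic cells, the main carriers of class II in kidney, were, like the members, low in kidney 4 and high in kidney 1. They were also low in kidney 2. Of 27 listed genes, 14 were on A (8 of 21 probe sets tested), 8 on B (5 of 9) and 11 on C (6 of 11). Their summed signal was 9578 in kidney 4 and 12418 in kidney 5 on A, against 13643, 8569 and 11919 in Dahl S kidneys 1, 2 and 3. On B it was 10752 and 13519.7 in congenic kidneys, against 16032, 10616 and 13782.5 in Dahl S kidneys. On C it was 8917 and 11482.5 in congenic kidneys, against 11750.5, 8568 and 9549 in Dahl S kidneys. On B, Laptm5, a lysosomal protein of blood cells, measured 1413 and 2862 in congenic kidneys, against 2967, 1515 and 2775.5 in Dahl S kidneys, and Fcer1g, the shared chain of Fc receptors, 5542 and 5405 against 6696, 4612 and 5664. These are the marker probe sets of B in which kidney 4 lay furthest below kidney 5 and in which it lay above it. The strain difference was below 0 in 5 of 5 marker probe sets on B (median −0.21) and in 2 of 6 on C (median 0.08), where the members had a median of −0.39.

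Kidney 2 was lower than kidney 4 in each of these sums. On C it was also lower in the median deviation of the markers given below. The order of the sums reversed without the brightest marker probe set of each design. Without it the sums were 4847 in kidney 4 and 5497 in kidney 2 on A (Lyz2 left out), 5210 and 6004 on B (Fcer1g left out), and 5147 and 5314 on C (Arhgdib left out), a setting chosen after seeing the data. The median deviation from the mean of the 5 kidneys was −0.33, −0.32 and −0.43 in kidney 4 (A, B and C) and −0.02, −0.09 and 0.01 in kidney 2 for the members, against −0.30, −0.47 and −0.26 in kidney 4 and −0.17, −0.27 and −0.28 in kidney 2 for the markers. The pan-leukocyte gene Ptprc did not pass the filter on any design, and 4 marker probe sets on A, 1 on B, and on C 1 lay below the floor in every kidney. Markers of B, T and NK cells had a summed signal of 2448 in kidney 4 and 3153 in kidney 5 on A, against 3001.5 to 3607 in Dahl S kidneys. On B their 1 tested probe set, of Thy1, measured 695 and 995.5 in congenic kidneys, against 596 to 1609 in Dahl S kidneys. On C their 2 tested probe sets summed to 1803 and 1664 in congenic kidneys, against 1470.0, 1336 and 1217 in Dahl S kidneys, so that there the congenic kidneys were higher. Of these, Cd3e, a chain of the T cell receptor complex, measured 1313 and 1039 in congenic kidneys, against 922, 862 and 782. The part of these cells in the members' values was not tested. In whole kidney, fewer cells of a type and less RNA per cell cannot be told apart.

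**Figure D5:**
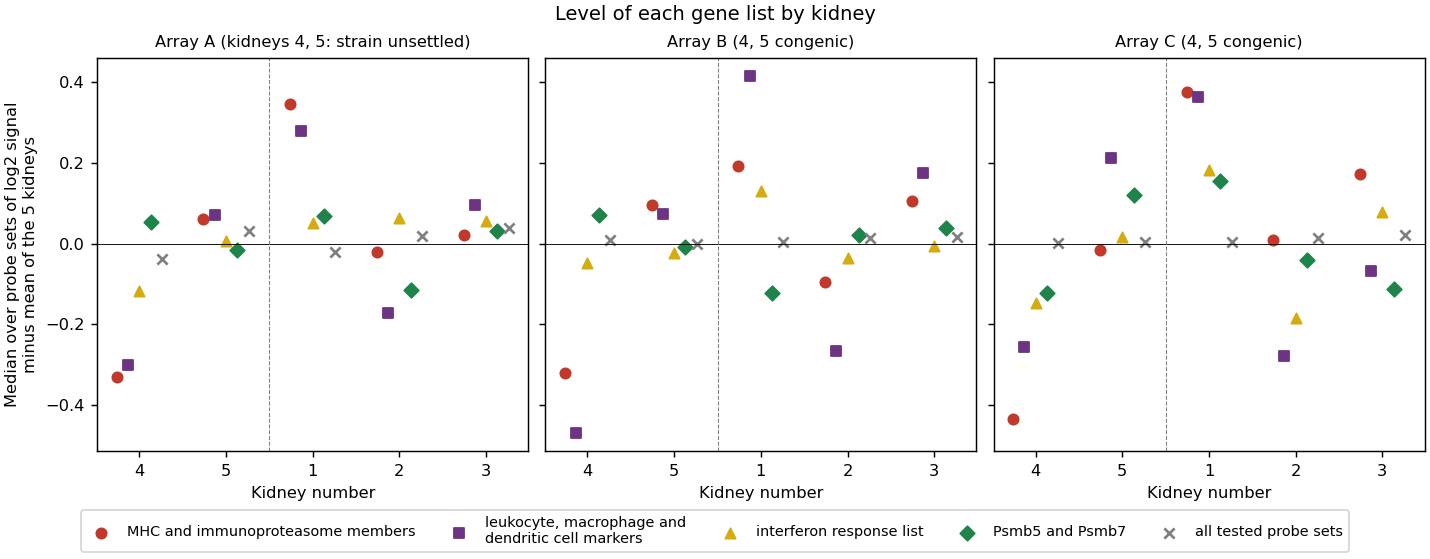
Median over probe sets of the log2 signal minus the mean of the 5 kidneys (y axis) for each kidney number (x axis, kidneys 4 and 5 left of the dashed line), for the members, leukocyte and macrophage markers, the interferon response list, Psmb5 and Psmb7, and all tested probe sets. The members and the leukocyte markers are both low in kidney 4 and high in kidney 1. Kidney 2 is low for the leukocyte markers, and on C also for the interferon response list.

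The named genes whose profile over the 5 kidneys was most like the mean profile of the members were, on array A, Cp, the copper carrier ceruloplasmin (Pearson r = 0.993 over the 5 kidneys), Ssr3, a subunit of the translocon-associated complex (0.988), and Timp1, an inhibitor of matrix metalloproteinases (0.9865). On array B they were Heatr4, Serpine2, an inhibitor of serine proteases, and Elk3, an ETS factor (r = 0.996, 0.996 and 0.994). On array C they were Col3a1, the chain of type III collagen, Dpp7, a lysosomal peptidase, and Tpm2, a tropomyosin (r = 0.995, 0.994 and 0.990). Timp1 measured 1091 in kidney 4 and 1607 in kidney 5 on A, against 2288, 1688.5 and 1599 in Dahl S kidneys. Serpine2 measured 526.5 and 1306 in congenic kidneys on B, against 1577, 971 and 1425 in Dahl S kidneys. Col3a1 measured 910.0 and 1193 in congenic kidneys on C, against 1628, 1394 and 1530.4 in Dahl S kidneys. A value of r of at least 0.95 was reached by 22 of 4394 probe sets other than the members on A, by 64 of 4380 on B, and by 34 of 4413 on C. The named genes were picked as the highest over only 5 kidneys, so their r is high by selection. In the mean profile of B, kidney 4 lay at −0.57. There Psmb10, raised to the floor, was at −1.89, Ifi27 at −0.66, Psmb9 at −0.32 and the mean of B2m at 0.02. The match on B therefore weighs Psmb10 heavily.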

How the data were processed

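Signal intensities per probe set, deposited by the authors in 3 tables of 5 arrays each, were used on the scale given. No source used here names the software or steps behind them, nor a background subtraction. The arrays carry a common scale already: their trimmed means (2% off each end) lay between 1000.57 and 1001.35. Each design was handled within its own table. Signals were raised to the 25th percentile of the design and taken to log2. Control probe sets (59 per design) and those with a mean under the median of all values were left out, which kept 4411, 4385 and 4420 probe sets on A, B and C. Symbols came from the platform annotation, updated by gene identifier to RefSeq GRCr8 (6985 of 7006 probe sets with 1 symbol for A, 5333 of 5351 for B, 5804 of 5821 for C). Probe sets with several symbols, among them 1 for B2m on A, were not used.

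The strains were compared on B and C (2 congenic, 3 Dahl S) by limma 3.58.1 (lmFit, eBayes; R 4.3.3) with Benjamini-Hochberg adjustment, and the procedure was tested on simulated data. The simulated differences were larger than those of every tested member probe set on B and C except Psmb10, so smaller differences were not covered. Standard errors are those of the fit. For the members, chosen from this comparison, they describe spread and are no test. The p-values reflect only how these arrays spread, which may be technical. The members, gene lists and markers were chosen with earlier results of these data known. All member probe sets are described; of other lists, genes past the threshold were to be named, otherwise up to 2 without overlap between strains. Promoters are those of RefSeq, GRCr8, found for all 10 members. Alternatives were quantile normalization, median scaling, floors at the 10th and 40th percentile, no filter, an intensity trend with robust variance, leaving out each kidney, and averaging the probe sets of a gene, the last chosen after seeing the data.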

Additional observations from a re-analysis of the deposited data

How the results depend on the processing

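The count of 4 called probe sets on array B was 1 with quantile normalization, 1 with arrays scaled to a common median, 1 with the floor at the 10th percentile and 1 with it at the 40th. Leaving out 1 kidney gave 0 to 31, with 31 without congenic kidney 5, 5 without congenic kidney 4 and 0 without any 1 of the Dahl S kidneys. On array C limma called 0 probe sets, 1 with an intensity trend and robust variance, and 2 without a filter. Leaving out 1 kidney gave 0 to 34 there, with 34 without congenic kidney 5. The members' median difference between strains on B was −0.19 without a filter, where an RT1-Bb probe set at the floor enters at 0, and ranged from −0.50 to 0.059 when 1 kidney was left out, with 0.059 without congenic kidney 4. On C it ranged from −0.50 to −0.17, the last without kidney 4. The median of kidney 4 minus kidney 5 on B was −0.49 with probe sets averaged by gene, which counts B2m once. Of 120 values of the 12 single member probe sets under these settings, 112 moved by less than the spread between kidneys of a strain and 110 kept their sign. This tally is no measure of stability. Dropping the filter could move none of these values, and the other floors moved Psmb10 alone. For Psmb10 the spread was 1.01 and includes kidney 4 at the floor, so that its shifts under the other floors count as unmoved. No paired analysis was possible because the kidneys of the strains share no number. Levels near the floor, as Psmb10 in kidney 4, have no order below it.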
